A study of Mus musculus with 9 samples.

Results

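Human genome studies of body fat distribution have repeatedly pointed to chromosomal regions near a small set of genes, and 7 mouse genes of this set were followed through diet-induced weight loss: Fam13a, Rspo3, Lyplal1, Grb14, Cobll1, Tbx15 and Plxnd1. They were picked by name from a gene count table of 56748 genes. Fam13a was picked because its level at 2 weeks of weight loss was known to be among the largest rises in these same libraries, so that its rise is described here and supports nothing. Of the 7 genes, 6 reached 0.5 CPM (counts scaled to the library size) in at least 1 library and entered the tests, which covered 18510 genes in all, and Tbx15 did not.

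RNA was sequenced from epididymal adipose tissue of male wild-type C57BL/6J mice. All mice received a high-fat diet (HFD) for 8 weeks from 8 weeks of age. The Pre libraries were collected then, at 16 weeks of age, and the WL1 and WL2 libraries after a further 1 or 2 weeks of standard diet (SD), at 17 and 18 weeks of age, with 3 libraries per phase. No library here came from mice kept on HFD to the same age, so that diet and age cannot be told apart. The labels do not say that each library came from a different mouse, and the p-values below measure the spread between these libraries. The libraries held from 16434450 to 22729072 counted reads, and no 2 libraries of a phase were alike within sampling noise. Markers of adipocytes were present in every library (summed FPKM of 10 genes from 6897 to 13830), while 6 epididymis genes all stayed below the filter. Pre replicate 2 stood apart in lymphocyte genes, with a summed FPKM of 89.5 over 8 genes against 2.42 to 8.53 in the other libraries. FPKM denotes fragments scaled by gene length and library total, as computed by the authors, and is used here wherever 2 genes are compared.

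The genes near these regions do not form a single pathway. Fam13a encodes a protein with a domain that acts on small GTPases of the actin cytoskeleton. Rspo3 is a secreted ligand that raises the response of cells to Wnt, Plxnd1 is a receptor for semaphorins known for guiding vessels and axons, and Grb14 is an adaptor that binds the activated insulin receptor and dampens it. Lyplal1 is a serine hydrolase, Cobll1 is related to the actin-binding protein cordon-bleu, and Tbx15 is a T-box transcription factor of mesenchymal development whose level is known to differ between fat depots.

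Per length, the most abundant of the 7 genes at Pre was Plxnd1 with a mean FPKM of 55.5. Lyplal1 followed with 15.5, Cobll1 with 8.50, Fam13a with 3.02, Grb14 with 2.52, Rspo3 with 0.234 and Tbx15 with 0.00952. Only Fam13a and Grb14 had overlapping libraries among the neighbours in this order. At WL2, Fam13a stood second in the order with a mean FPKM of 21.1, and its libraries (17.1 to 23.8) overlapped those of Plxnd1 (20.2 to 25.9). Lyplal1 and Cobll1 overlapped at WL1 and at WL2.

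**Figure D1:**
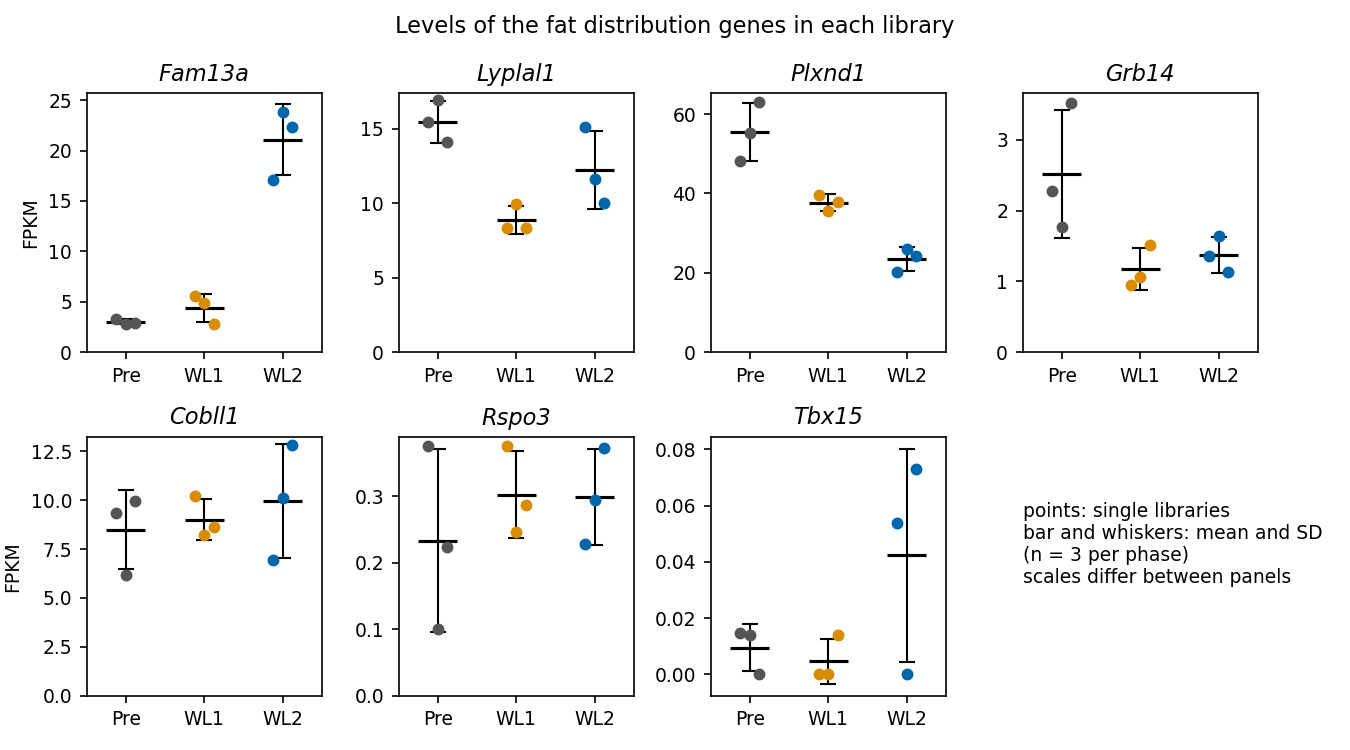
FPKM (vertical axis, from 0 or just below it, a separate scale in each panel) of the 7 genes in the 3 libraries of each phase, with the mean (bar) and SD (whiskers). The WL2 points of Fam13a, from 17.1 to 23.8, lie above all its other points, the highest of which is 5.53, and the points of Plxnd1 fall in 3 separate groups from Pre to WL2.

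Fam13a had 632, 572 and 704 reads in the Pre libraries, 1153, 1201 and 560 in the WL1 libraries and 3570, 4655 and 4273 in the WL2 libraries. After scaling for library size this gave 33.7 ± 3.08 CPM in Pre, 49.7 ± 16.2 in WL1 and 235 ± 35.6 in WL2 (SD, n = 3). The WL2 libraries, between 195 and 264 CPM, lay far above the others, whereas at WL1 replicates 1 and 2, with 62.6 and 55.1 CPM, were above all Pre libraries and replicate 3, with 31.5 CPM, was level with the lowest Pre library. The log2 fold change was 0.56 (SE 0.22) at WL1 versus Pre, 2.80 (SE 0.23) at WL2 versus Pre and 2.24 (SE 0.23) at WL2 versus WL1. These correspond to folds of 1.47, 6.98 and 4.73. No p-value is given for Fam13a, because it was chosen on its WL2 values and the comparisons share libraries. Among 13056 protein-coding genes with a mean of at least 1 CPM, the rise at WL2 versus Pre ranked 2, just below Thbs2 (log2 fold change 3.00) and just above Ripk4 (2.68). Set against 1000 FPKM of summed adipocyte markers, a scale chosen after seeing the data, Fam13a had 0.255 ± 0.0206 FPKM in Pre, 0.521 ± 0.126 in WL1 and 1.58 ± 0.204 in WL2 (SD, n = 3), without overlap between phases, and log2 differences versus Pre of 1.00 and 2.62. With each library left out in turn, the log2 fold change at WL2 versus Pre lay between 2.71 and 2.92, and at WL1 versus Pre between 0.36 and 0.79.

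Genes that overlap Fam13a on the opposite strand held few reads. Gm45060, BB365896 and Gm45061 had 25, 11 and 3 reads over all libraries, against 17320 for Fam13a. In the coordinates of the authors' table, which could not be tied to a genome build, Fam13a (ENSMUSG00000037709) lies on chromosome 6 from 58909075 to 59001534 on the minus strand. The promoter window of the RefSeq entry, 250 bases before to 50 bases after its start, is shown because Fam13a had the steepest rise of the 7 genes. It is the minus strand of chr6:59024453-59024752 in GRCm38.p6, with matches to CCAAT, read on the opposite strand as ATTGG, in capitals.
Fam13a: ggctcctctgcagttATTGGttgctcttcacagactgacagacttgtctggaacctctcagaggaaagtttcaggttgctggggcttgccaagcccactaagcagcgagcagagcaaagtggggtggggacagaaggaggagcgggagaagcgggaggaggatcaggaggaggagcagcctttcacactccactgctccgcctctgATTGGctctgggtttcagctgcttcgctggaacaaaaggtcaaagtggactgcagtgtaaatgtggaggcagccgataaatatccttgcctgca
The CCAAT matches lie at -235 to -231 and -44 to -40 from the start, and 37.4% of 32851 mouse promoter windows of this length hold at least 1 such match. The E-box CACGTG, present in 7.15% of windows, was not among the letters of this window. Nor was the forkhead motif GTAAACA, present in 3.65%, nor the cyclic AMP response element TGACGTCA, present in 1.79%, nor TATAAA, present in 13.6%. The window had 55.0% GC and 6 CpG, near the medians of all windows (52.7% and 7). Counts per gene do not tell which start site was used.

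Genes whose levels ran most closely with Fam13a over the 9 libraries were Thpo (Pearson r 0.988 of log2 CPM), Qtrt2 (0.985), Sh3bgrl (0.984), Dock11 (0.982) and Crls1 (0.981), out of 14636 genes with a mean of at least 1 CPM. Thpo is the cytokine thrombopoietin, Dock11 is an exchange factor for a small GTPase and Crls1 is the mitochondrial cardiolipin synthase. Crls1 had a mean FPKM of 17.3 at Pre, 22.4 at WL1 and 46.1 at WL2, and Dock11 of 4.30, 5.31 and 8.60. Running most closely against it were Maged2 (r = -0.992), Pea15a (r = -0.989) and Mfap3l (r = -0.989). Pea15a had a mean FPKM of 101 at Pre, 89.3 at WL1 and 56.6 at WL2. These 9 points fall by phase, with WL2 apart from the rest, so that any gene that differs mainly at WL2 correlates with Fam13a, and the values are descriptions without a test.

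Of 7 genes for proteins that have been linked to Fam13a, such as beta-catenin and an insulin receptor substrate, Sirt1 passed at WL2 versus Pre and Cpt1a at WL2 versus WL1. This made 1 of 7 in each comparison, beside 10.0% and 3.68% of all genes tested. Sirt1, an NAD-dependent deacetylase, rose from a mean FPKM of 2.93 at Pre to 4.02 at WL2, by 0.46 on the log2 scale (adjusted p = 0.0439, edgeR). This call passed in 1 of the 9 leave-one-out fits, each lacking 1 library, the one without Pre replicate 2, with log2 fold changes from 0.38 to 0.52. Cpt1a, the enzyme that admits fatty acids to mitochondria for oxidation, fell by 0.71 on the log2 scale from WL1 to WL2 (adjusted p = 0.0250, edgeR), and lost the threshold on leaving out WL1 replicates 1 or 3 or WL2 replicates 2 or 3 (-0.79 to -0.60). None of the 7 passed at WL1 versus Pre in edgeR, with 2 at p below 0.05 before adjustment, 0 by DESeq2, and 0 by limma (log2(FPKM + 1)). Of all genes, 7.29% passed there in edgeR. The sequence relatives Fam13b and Fam13c did not pass in any comparison. Fam13b had a mean FPKM of 1.74 at Pre, 2.34 at WL1 and 1.54 at WL2, and Fam13c of 1.37, 1.58 and 1.34.

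After 1 week of SD, 3 of the 6 tested genes passed the threshold, an adjusted p of 0.05 over all 18510 genes (edgeR, quasi-likelihood F-test, Benjamini-Hochberg), and all 3 fell: Lyplal1, Plxnd1 and Grb14. Of all genes tested, 7.29% passed in this comparison, 2.6% higher and 4.69% lower at WL1. At WL2 versus Pre, 10.0% of all genes passed, 3.35% higher and 6.66% lower. The members past the threshold in that comparison were 2, Fam13a upward and Plxnd1 downward, and nothing is read from this count because the comparison was used to choose Fam13a. At WL2 versus WL1, 3.68% of all genes passed, 1.31% higher and 2.37% lower, and among the members again Fam13a upward and Plxnd1 downward. Nothing is read from the place of Fam13a in this count either, as the gene was chosen on its WL2 values. With library totals as the only scaling, 61.0% of the calls at WL1 and 64.2% of those at WL2 versus Pre were higher, in place of 35.7% and 33.5%. Between WL1 and WL2, upper quartile scaling gave 48.3% in place of 35.5%. Under each of these scalings the members past the threshold kept their direction. The 3 comparisons share libraries pairwise, so that their values are not independent of each other.

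Because Pre replicate 2 stood apart, the members were also compared without it. The log2 fold change at WL1 versus Pre was then -0.54 for Plxnd1 (adjusted p = 0.0579, edgeR), -0.71 for Lyplal1 (adjusted p = 0.0566, edgeR) and -1.29 for Grb14 (adjusted p = 0.0216, edgeR), so that Grb14 alone passed. From WL1 to WL2 Plxnd1 passed as before (-0.70, adjusted p = 0.0206, edgeR), and Fam13a had 2.76 at WL2 versus Pre.

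**Figure D2:**
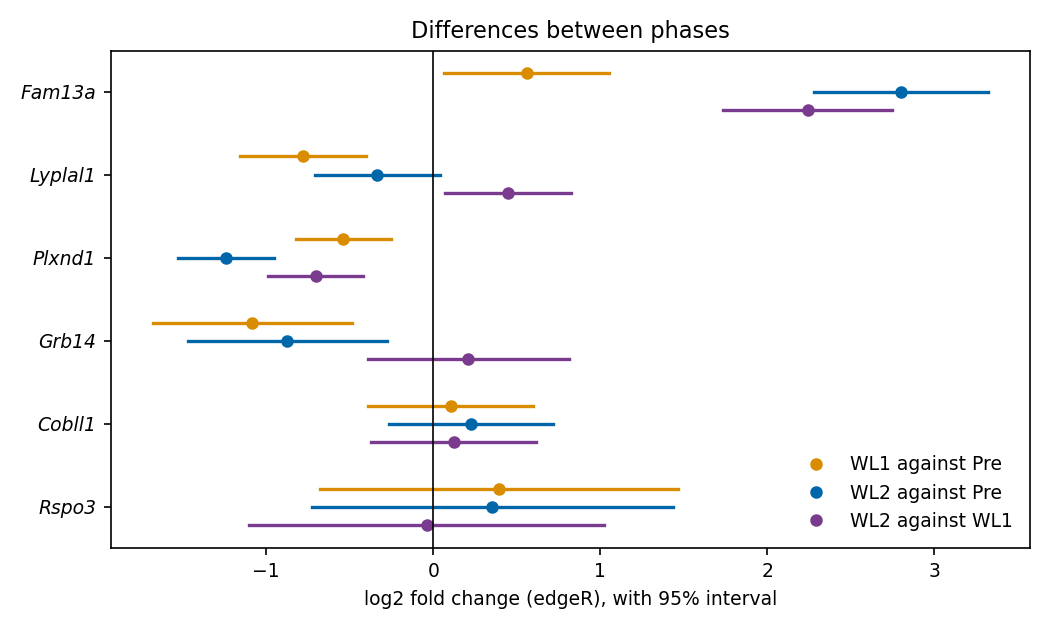
Log2 fold change (horizontal axis) of the 6 tested genes in the 3 comparisons, with the 95% interval of each estimate, not adjusted over genes. The intervals of Plxnd1 lie below 0 in all 3 comparisons, those of Cobll1 and Rspo3 include 0 in all 3, and Fam13a reaches 2.80 at WL2 versus Pre. Fam13a was chosen on its WL2 values and the comparisons share libraries, so that its intervals are drawn as a description and support nothing.

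Plxnd1 (ENSMUSG00000030123, chromosome 6, 115931772 to 115971966, minus strand in the table) fell at each step. It had 6378, 7784 and 10617 reads in the Pre libraries, 5755, 6126 and 5303 at WL1 and 2928, 3524 and 3236 at WL2. The scaled levels were 432 ± 56.9, 297 ± 15.6 and 182 ± 20.1 CPM (SD, n = 3), and no library of a phase overlapped those of another phase. The log2 fold change was -0.54 (SE 0.13, adjusted p = 0.0335, edgeR) at WL1 versus Pre and -0.70 (SE 0.13, adjusted p = 0.0216, edgeR) at WL2 versus WL1. At WL2 versus Pre it was -1.24 (SE 0.13), and Plxnd1 was number 369 from the lowest among the 13056 ranked genes. Each of these 2 calls was lost on leaving out any 1 of several libraries, while the estimates stayed below 0. The fall at WL1 lost the threshold on leaving out Pre replicates 2 or 3, any WL1 library or WL2 replicate 3 (-0.63 to -0.44), and the fall from WL1 to WL2 on leaving out WL2 replicates 2 or 3 or any library of WL1 (-0.77 to -0.62). When the library totals alone were used for scaling, the fall at WL1 was -0.44 and did not pass, and, among the other settings, neither fall passed in limma on log2(FPKM + 0.1).

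The summed adipocyte markers were lower at WL1 (6897 to 9539 FPKM) than at Pre (10410 to 13790) and WL2 (12710 to 13830), with Plin1, Cidec, Lep and Retn past the threshold. The level of the sum at WL2 rests on 1 of the 10 markers, Cfd (adipsin). Without Cfd, a choice made after seeing the data, the sums were 9583 to 11952 at Pre, 6437 to 8101 at WL1 and 8757 to 9562 at WL2. Of the 10 markers, 4 were higher and 6 lower at WL2 than at Pre. In a tissue sample, fewer cells of a type and less RNA per cell cannot be told apart. The sum of 8 macrophage markers was higher in WL1 (1364 to 2734 FPKM) than in Pre (735 to 1284) and was 806 to 1533 in WL2. Of the 8, 7 were higher and 1 lower at WL1 than at Pre, with Trem2 past the threshold upward. Markers of progenitors and fibroblasts, also 8 genes, had 325 to 377 in Pre, 319 to 415 in WL1 and 412 to 462 in WL2, where 1 of the 8, Dcn, passed upward versus Pre. The mean of Dcn went from 113 FPKM at Pre to 201 at WL2, while 3 of the 8 were lower at WL2 than at Pre: Lum (-0.53 on the log2 scale), Pdgfrb (-0.20) and Cd34 (-0.19). Set against 1000 FPKM of the adipocyte markers, Plxnd1 had 4.79 ± 1.28 FPKM in Pre, 4.63 ± 0.884 in WL1 and 1.76 ± 0.152 in WL2 (SD, n = 3). On this scale the difference at WL1 versus Pre was -0.03 on the log2 scale, and at WL2 versus WL1 -1.38. With Cfd left out of the marker sum, these differences of Plxnd1 were -0.01 and -1.04. Endothelial markers, 8 genes, had summed FPKM of 450 to 697 at Pre, 350 to 691 at WL1 and 486 to 631 at WL2, with 0 genes past the threshold in any comparison in edgeR, 0 at p below 0.05 before adjustment and 0 by DESeq2. Smooth muscle and pericyte markers, 6 genes, had 221 to 269 at Pre, 131 to 162 at WL1 and 120 to 178 at WL2, and 1 of the 6 passed at WL1, Acta2, which fell by 1.28 on the log2 scale (adjusted p = 0.000532, edgeR), from a mean FPKM of 156 to 63.3. Of the 6 markers, 4 were lower at WL1 and 2 higher, Tagln (0.40 on the log2 scale) and Notch3 (0.21), without passing. The part of these markers in the fall of Plxnd1, and in the levels of the other members, was not tested.

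The genes that ran most closely with Plxnd1 were Col4a2, Col4a1 and Col5a1, each with r of 0.980 over the 9 libraries. Col4a1 and Col4a2 are the main chains of basement membrane collagen, and Col5a1 is a chain of fibrillar collagen V. The libraries of Plxnd1 fall by phase, so that any gene that falls at each step correlates with it. These correlations and those between members are descriptions without a test. The correlation of Plxnd1 with Fam13a was -0.905, and between the other tested members it ranged from -0.559 (Lyplal1 and Cobll1) to 0.619 (Lyplal1 and Grb14). Rspo3 and Tbx15, below a mean of 1 CPM, were not ranked.

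Among 17 other genes of semaphorins, plexins and neuropilins, all tested, 1 rose and 1 fell at WL1 versus Pre, 1 rose and 2 fell at WL2 versus Pre and 1 fell at WL2 versus WL1, beside 7.29%, 10.0% and 3.68% of all genes past the threshold. Their median log2 fold changes were 0.17, 0.06 and 0.10, beside 0.02072, 0.008422 and -0.001395 for all genes. Plxna3 fell from a mean FPKM of 2.00 at Pre to 1.12 at WL1 and 0.929 at WL2, with log2 fold changes versus Pre of -0.81 (adjusted p = 0.0106, edgeR) and -1.11 (adjusted p = 0.00117, edgeR), in all 9 leave-one-out fits. Plxna4 rose from 1.15 to 1.90 and 2.22, by 0.75 (adjusted p = 0.0178, edgeR) and 0.95 (adjusted p = 0.00345, edgeR), the former lost on leaving out Pre replicate 1 or WL1 replicates 1 or 3 (0.62 to 0.86). Sema3c, a secreted ligand, fell by 1.17 on the log2 scale at WL2 versus Pre (adjusted p = 0.0385, edgeR), lost on leaving out Pre replicates 1 or 3, WL1 replicate 1 or WL2 replicates 1 or 2 (-1.54 to -0.89). Plxna1 fell by 0.87 on the log2 scale from WL1 to WL2 (adjusted p = 0.0182, edgeR), lost on leaving out WL1 replicate 3 or WL2 replicates 2 or 3 (-0.96 to -0.71). Sema3e, the semaphorin that binds Plxnd1 directly, did not pass, with a mean FPKM of 0.217 at Pre, 0.179 at WL1 and 0.367 at WL2.

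Grb14 had 296, 245 and 584 reads in the Pre libraries, 135, 181 and 209 at WL1 and 194, 220 and 148 at WL2. The levels were 19.3 ± 6.91, 9.13 ± 2.32 and 10.6 ± 1.95 CPM (SD, n = 3). Pre replicate 3, with 26.9 CPM, was above the other Pre libraries (13.5 and 17.5 CPM), which in turn were above all libraries of WL1 and WL2, the highest of which had 12.5 CPM. Its log2 fold change at WL1 versus Pre was -1.08 (SE 0.27, adjusted p = 0.0391, edgeR), the largest fall of the members at this step. The call was lost on leaving out Pre replicates 1 or 3, WL1 replicates 1 or 2 or WL2 replicates 2 or 3 (-1.32 to -0.76), and also, among other settings, in limma on log2(FPKM + 1) or log2(FPKM + 0.1) and when these 2 phases were fitted alone. At WL2 the log2 fold change was -0.87 (SE 0.27) versus Pre and 0.21 versus WL1, the latter with a 95% interval from -0.39 to 0.81 (adjusted p = 0.724, edgeR). Per 1000 FPKM of adipocyte markers, Grb14 had 0.219 ± 0.103 FPKM in Pre, 0.148 ± 0.0624 in WL1 and 0.103 ± 0.0173 in WL2 (SD, n = 3), and the log2 difference at WL1 versus Pre was -0.55. At WL2 versus WL1 the log2 difference on this scale was -0.45, opposite in sign to that of the scaled counts. With Cfd left out of the marker sum it was -0.11.

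Of 15 genes of the insulin receptor and its adaptors and kinases, 2 passed downward at WL1 versus Pre and 2 at WL2 versus Pre. None passed upward, and 7.29% and 10.0% of all genes passed. Regardless of the threshold, 10 of the 15 were higher and 5 lower at WL1 versus Pre, and 9 higher and 6 lower at WL2 versus Pre. Their median log2 fold changes were 0.09 and 0.04, beside 0.02072 and 0.008422 for all genes. DESeq2 called 4 and 3 of the 15 in these comparisons, beside 2344 and 2717 of all genes. Between WL1 and WL2, 0 passed in edgeR, with 9 at p below 0.05 before adjustment, 4 by DESeq2, and 0 by limma (log2(FPKM + 1)). Of all genes there, 3.68% passed in edgeR, 1935 genes by DESeq2 and 582 by limma. The count before adjustment has no share of all genes beside it, and nothing is read from it. Akt2, the kinase through which insulin drives glucose uptake in adipocytes, fell from a mean FPKM of 56.1 at Pre to 32.7 at WL1 (log2 fold change -0.76, adjusted p = 0.00382, edgeR), in all 9 leave-one-out fits. At WL2 it stood at 42.5, with a log2 fold change versus Pre of -0.40 (adjusted p = 0.0467, edgeR), which passed in 1 of those fits, without Pre replicate 3 (-0.47 to -0.35). Sh2b2, an adaptor of the insulin receptor, fell from 9.62 to 4.95 FPKM at WL1 (log2 fold change -0.94, adjusted p = 0.00590, edgeR), in all 9 leave-one-out fits. Grb7, a close relative of Grb14, fell by 2.61 on the log2 scale at WL2 versus Pre (adjusted p = 0.0124, edgeR), from a mean FPKM of 0.906 to 0.147, and lost the threshold on leaving out WL2 replicate 3 (-2.83 to -2.42 over the leave-one-out fits). Grb10, the other relative, did not pass, with 6.93, 5.89 and 7.83 FPKM at Pre, WL1 and WL2. The receptor gene Insr did not pass either, with 6.18, 6.55 and 8.80.

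Lyplal1 (ENSMUSG00000039246, chromosome 1, 185819928 to 185849507, minus strand in the table) showed its lowest level at WL1. It had 440, 515 and 513 reads at Pre, 260, 370 and 253 at WL1 and 473, 341 and 287 at WL2. Levels were 26.0 ± 2.35, 15.1 ± 1.63 and 20.6 ± 4.77 CPM (SD, n = 3). All WL1 libraries were below all Pre libraries, and the WL2 libraries spread from 16.6 to 25.9 CPM, reaching into both. The log2 fold change was -0.78 (SE 0.17, adjusted p = 0.0237, edgeR) at WL1 versus Pre. It passed in each of the 10 other settings, and was lost on leaving out Pre replicates 1 or 2 or WL1 replicates 1 or 3 (-0.87 to -0.71). From WL1 to WL2 it was 0.45, with a 95% interval from 0.07 to 0.82 before adjustment (adjusted p = 0.161, edgeR), which did not pass, and at WL2 versus Pre it was -0.33 (SE 0.17). Per 1000 FPKM of adipocyte markers, Lyplal1 had 1.32 ± 0.182 FPKM in Pre, 1.08 ± 0.120 in WL1 and 0.924 ± 0.232 in WL2 (SD, n = 3), so that on this scale the difference at WL1 versus Pre was -0.28 on the log2 scale and that at WL2 versus WL1 was -0.24, opposite in sign to that of the scaled counts. That sign rests on 1 marker, Cfd (the secreted protease adipsin), with a mean of 1046 FPKM at WL1 and 4084 at WL2. With Cfd left out of the marker sum, a choice also made after seeing the data, the difference of Lyplal1 at WL2 versus WL1 was 0.10. Lypla1 and Lypla2, the related acyl-protein thioesterases, did not pass, with 9.34, 6.16 and 7.91 FPKM and 27.5, 24.7 and 26.9 FPKM at Pre, WL1 and WL2. The genes most alike to Lyplal1 were Prorsd1 (r = 0.957), Dap3 (r = 0.955), a protein of the mitochondrial ribosome, and Exosc5 (r = 0.951), a subunit of the RNA exosome.

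Cobll1 did not differ beyond the spread between libraries. Its reads were 1414, 996 and 1912 at Pre, 1688, 1620 and 1379 at WL1 and 1154, 1571 and 1951 at WL2, or 75.5 ± 18.0, 81.1 ± 9.18 and 88.3 ± 24.9 CPM (SD, n = 3). The WL2 libraries covered the widest range, from 63.2 to 113 CPM, and all phases overlapped. The log2 fold change was 0.10 at WL1 versus Pre, with a 95% interval from -0.39 to 0.60 (adjusted p = 0.813, edgeR), and 0.12 at WL2 versus WL1, with an interval from -0.37 to 0.62 (adjusted p = 0.817, edgeR). At WL2 versus Pre it was 0.23 (SE 0.22). Its opposite-strand neighbour Gm13594 had 139 reads in all against 13685 for Cobll1. Cobl, the relative after which it is named, did not pass, with a mean FPKM of 0.544 at Pre, 0.318 at WL1 and 1.27 at WL2. Most alike to Cobll1 were Tiparp (r = 0.968), Gm3235 (r = 0.961) and Ncoa1 (r = 0.954), a coactivator of nuclear receptors.

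Grb14 and Cobll1 lie next to each other on chromosome 2, 63.4 kb apart in the table, from 64742820 to 64855331 (ENSMUSG00000026888) and from 64918683 to 65069747 (ENSMUSG00000034903), both on the minus strand. Their levels over the 9 libraries had a correlation of -0.104. Their RefSeq promoter windows are shown side by side with that of Plxnd1, the member with the steepest fall, to compare their composition. The windows are the minus strands of chr2:65022717-65023016 for Grb14, chr2:65238742-65239041 for Cobll1 and chr6:115994956-115995255 for Plxnd1 in GRCm38.p6, and capitals mark matches to GGGCGG or its reverse CCGCCC, the core of the GC box.
Grb14: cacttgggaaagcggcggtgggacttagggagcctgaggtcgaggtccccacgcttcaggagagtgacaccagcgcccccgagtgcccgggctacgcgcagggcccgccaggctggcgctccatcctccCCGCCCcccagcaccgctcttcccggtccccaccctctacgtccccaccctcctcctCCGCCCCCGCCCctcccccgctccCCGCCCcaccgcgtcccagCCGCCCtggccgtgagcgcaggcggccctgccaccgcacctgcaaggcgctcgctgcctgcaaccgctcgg
Cobll1: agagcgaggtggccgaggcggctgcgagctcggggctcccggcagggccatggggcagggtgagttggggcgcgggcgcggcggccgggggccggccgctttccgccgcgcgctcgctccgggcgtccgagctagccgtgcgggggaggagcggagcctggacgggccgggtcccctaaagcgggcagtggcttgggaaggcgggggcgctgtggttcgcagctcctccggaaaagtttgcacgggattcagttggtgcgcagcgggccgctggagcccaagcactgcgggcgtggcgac
Plxnd1: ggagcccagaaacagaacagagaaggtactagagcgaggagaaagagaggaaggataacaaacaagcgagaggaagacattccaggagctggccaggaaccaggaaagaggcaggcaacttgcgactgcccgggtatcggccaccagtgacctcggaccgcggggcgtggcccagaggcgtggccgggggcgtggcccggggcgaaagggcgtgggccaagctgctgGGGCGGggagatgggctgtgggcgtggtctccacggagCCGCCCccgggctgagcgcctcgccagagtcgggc
The windows of Grb14 and Cobll1 had 75.3% GC each, with 30 and 39 CpG, and that of Plxnd1 67.0% with 23 CpG. Grb14 held 5 GC boxes between -121 and -16, 2 of them adjacent, Plxnd1 held 2 and Cobll1 none. The window of Lyplal1 had 52.3% GC, 17 CpG and 1 GC box, and that of Fam13a none. In all, 35.7% of the 32851 windows held at least 1. A match is a matter of letters and is not a bound site.

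Rspo3 (ENSMUSG00000019880, chromosome 10, 29328412 to 29411863, minus strand in the table) had few reads. It had 21, 6 and 16 reads at Pre, 23, 18 and 17 at WL1 and 14, 17 and 21 at WL2, or 0.769 ± 0.455, 1.01 ± 0.216 and 0.981 ± 0.225 CPM (SD, n = 3). The phases overlapped throughout, and Pre replicate 2, with 0.330 CPM, was the lowest library. Its log2 fold change was 0.39 at WL1 versus Pre, with a 95% interval from -0.68 to 1.47 (adjusted p = 0.661, edgeR), and -0.04 at WL2 versus WL1, with an interval from -1.10 to 1.02 (adjusted p = 0.978, edgeR). A change within these intervals could not be detected with these libraries, and counting error and spread between libraries were not separated. At WL2 versus Pre the log2 fold change was 0.35 (SE 0.49). Both estimates versus Pre rest on Pre replicate 2: without it they were 0.039 and 0.0006706, and over all leave-one-out fits they ranged up to 0.89 and 0.85.

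Of 14 other genes of R-spondin signalling, 9 were tested and 0 passed in any comparison in edgeR, beside 7.29%, 10.0% and 3.68% of all genes. At WL1 versus Pre 1 of the 9 was higher and 8 lower. In each of the other comparisons 3 were higher and 6 lower. Their median log2 fold changes were -0.1985, -0.2548 and -0.03029, beside 0.02072, 0.008422 and -0.001395 for all genes. At an unadjusted p under 0.05 there were 1 at WL1 versus Pre, 4 at WL2 versus Pre and 1 at WL2 versus WL1, with no share of all genes beside them. DESeq2 called 1, 1 and 0, beside 2344, 2717 and 1935 of all genes. The ligand Rspo1 was more abundant per length than Rspo3, with a mean FPKM of 10.9 at Pre, 6.22 at WL1 and 24.5 at WL2. The summed markers of mesothelium spread widely, from 11.2 to 110 FPKM at Pre, 13.0 to 66.1 at WL1 and 73.0 to 209 at WL2. The part of these cells in the level of Rspo1 was not tested. Lgr4, a receptor of R-spondins, had 10.5, 9.28 and 7.59 FPKM, and Axin2, a common target of Wnt signalling, had 4.85, 2.73 and 2.72 FPKM at Pre, WL1 and WL2.

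Tbx15 (ENSMUSG00000027868, chromosome 3, 99147697 to 99261575, plus strand in the table) was at or near 0 in all libraries. It had 1, 1 and 0 reads at Pre, 0, 0 and 1 at WL1 and 4, 0 and 5 at WL2, which over the 3 libraries of each phase gave 2, 1 and 9 reads. The pooled level was 0.0333 CPM at Pre, with an exact 95% Poisson interval from 0.00403 to 0.120, 0.0174 CPM at WL1 (0.000441 to 0.0971) and 0.177 CPM at WL2 (0.0810 to 0.336). These intervals cover counting error only, and 1 of the WL2 libraries held no read. No fold is given. The adjoining gene Wars2, the mitochondrial tryptophanyl-tRNA synthetase, 1.20 kb from Tbx15 in the table and named with it in the human locus, had 1.20, 1.52 and 1.38 FPKM at Pre, WL1 and WL2 and did not pass.

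Like Tbx15, homeobox genes and a few other developmental genes are known to differ between fat depots. Of 14 such genes 12 were tested. All 12 were lower at WL1 than at Pre (median log2 fold change -0.51, beside 0.02072 for all genes). Of these 12, 3 passed, Hoxc6, Hoxc8 and Gpc4, beside 4.69% of all genes past the threshold downward. Hoxc8 fell from a mean FPKM of 31.9 to 17.6 (log2 fold change -0.84, adjusted p = 0.0178, edgeR) and stood at 28.8 at WL2. The call was lost on leaving out Pre replicate 1 or WL1 replicate 3 (-0.98 to -0.70). Hoxc6 fell from 14.3 to 9.16 (log2 fold change -0.62, adjusted p = 0.0214, edgeR), lost on leaving out Pre replicate 1 or WL1 replicates 1 or 3 (-0.72 to -0.53), and stood at 13.5 at WL2. Gpc4, a cell-surface heparan sulfate proteoglycan, fell from 33.0 to 20.2 (log2 fold change -0.69, adjusted p = 0.0304, edgeR), lost on leaving out Pre replicates 1 or 3 or WL1 replicates 2 or 3 (-0.79 to -0.59). At WL2 Gpc4 had 18.8 FPKM and a log2 fold change versus Pre of -0.81 (adjusted p = 0.0106, edgeR), in all 9 leave-one-out fits. It alone of the 12 passed at WL2 versus Pre, beside 10.0% of all genes. In that comparison 7 of the 12 were higher and 5 lower (median log2 fold change 0.36). From WL1 to WL2, 11 of 12 were higher (median 0.66), and 0 passed in edgeR, with 6 at p below 0.05 before adjustment, 3 by DESeq2, and 1 by limma (log2(FPKM + 1)). Of all genes there, 3.68% passed in edgeR, 1935 genes by DESeq2 and 582 by limma. The summed adipocyte markers were also lower at WL1. The mesothelium markers were lower at WL1 than at Pre in 6 of 6 and higher at WL2 than at WL1 in 6 of 6, with the sums given above, without passing. Before adjustment, 0 of the 6 were at p below 0.05 at WL1 versus Pre in edgeR and 6 at WL2 versus WL1. Counts before adjustment have no share of all genes beside them here, and nothing is read from them. Pre replicate 1, with a sum of 11.2 FPKM for the mesothelium markers, was below every WL1 library. The part of these cells in the levels of the depot genes was not tested.

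Around the 7 genes, the 2 nearest tested protein-coding genes on each side gave 24 neighbours. Of these, 2 fell at WL1 versus Pre, and at WL2 versus Pre 1 rose and 1 fell, beside 7.29% and 10.0% of all genes past the threshold. At WL2 versus WL1, 0 passed in edgeR, with 5 at p below 0.05 before adjustment, 3 by DESeq2, and 1 by limma (log2(FPKM + 1)). Of all genes there, 3.68% passed in edgeR, 1935 genes by DESeq2 and 582 by limma. The 4 neighbours of Fam13a, among them Herc3 at 11.7 kb, did not pass in any comparison, and at WL2 versus Pre Herc3 had a log2 fold change of -0.32 (SE 0.14). Nor did the 4 neighbours of Plxnd1, of which Ift122 at 28.1 kb had 0.39 (SE 0.21). Echdc1, an enzyme that removes a side product of fatty acid synthesis and lies 105 kb from Rspo3, fell at WL1 by 0.74 on the log2 scale (adjusted p = 0.0164, edgeR) and at WL2 versus Pre by 1.08 (adjusted p = 0.00146, edgeR), the former lost on leaving out WL1 replicates 1 or 3 (-0.85 to -0.61). Bpnt1, a nucleotidase 730 kb from Lyplal1, fell at WL1 by 0.51 (adjusted p = 0.0197, edgeR), lost on leaving out any WL1 library (-0.56 to -0.44). Fign, on the far side of Grb14, rose at WL2 versus Pre by 1.30 (adjusted p = 0.0432, edgeR), from 0.308 to 0.758 FPKM, and passed in 3 of the 9 fits, being lost on leaving out Pre replicates 2 or 3, WL1 replicate 2 or any WL2 library (1.08 to 1.65).

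**Figure D3:**
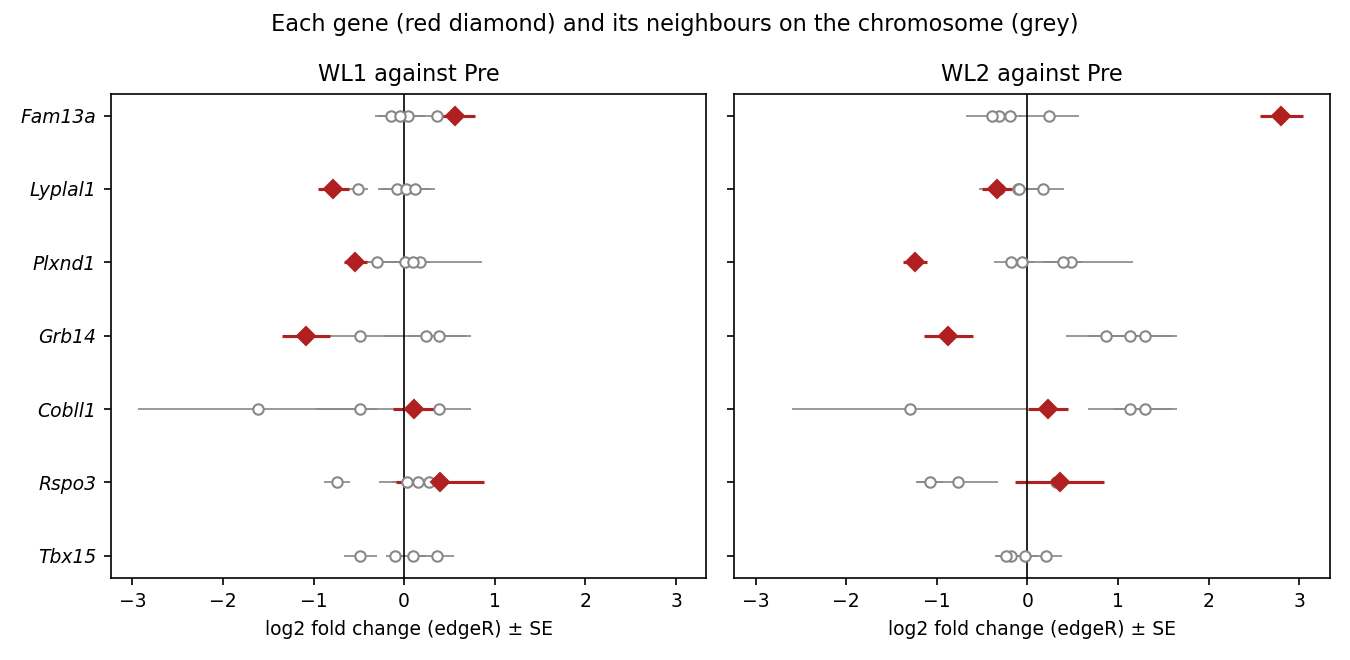
Log2 fold change with SE (horizontal axis) of each of the 7 genes (red diamond, none for Tbx15) and of the 2 nearest tested protein-coding genes on each side (grey circles), Grb14 and Cobll1 having neighbours in common. At WL2 versus Pre, Fam13a at 2.80 lies to the right of its 4 neighbours and Plxnd1 at -1.24 to the left of its own.

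Beyond the 7 genes, 48 further mouse genes named for human fat distribution loci were listed, and 46 were tested. At WL1 versus Pre 1 rose and 3 fell, at WL2 versus Pre 1 rose and 4 fell, and at WL2 versus WL1 1 rose and 1 fell. The shares past the threshold, 4, 5 and 2 of 46, stand beside 7.29%, 10.0% and 3.68% of all genes, and the medians (-0.001181, 0.006188 and -0.11) beside those of all genes above. Klf14, a zinc finger factor named for a human locus of fat storage, fell at each step. Its mean FPKM was 6.28 ± 1.25 in Pre, 3.25 ± 0.449 in WL1 and 1.04 ± 0.123 in WL2 (SD, n = 3), with no overlap between phases. The log2 fold change was -0.93 (adjusted p = 0.0161, edgeR) at WL1 versus Pre, lost on leaving out Pre replicate 1 or WL1 replicates 2 or 3 (-1.07 to -0.78), -2.59 (adjusted p = 4.31e-05, edgeR) at WL2 versus Pre and -1.66 (adjusted p = 0.00433, edgeR) at WL2 versus WL1, the last 2 in all 9 leave-one-out fits.

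Pemt, an enzyme that makes phosphatidylcholine, fell from 5.47 ± 0.534 FPKM at Pre to 2.50 ± 0.535 at WL1 (SD, n = 3, log2 fold change -1.10, adjusted p = 0.00764, edgeR), in all 9 leave-one-out fits, and stood at 2.95 ± 0.220 at WL2 (-0.89 versus Pre, adjusted p = 0.0139, edgeR, lost on leaving out WL2 replicates 2 or 3, with -0.95 to -0.81). Gdf5, a ligand of the BMP family, fell from 0.563 FPKM at Pre to 0.154 at WL1 and 0.130 at WL2, with log2 fold changes versus Pre of -1.84 (adjusted p = 0.0493, edgeR) and -2.09 (adjusted p = 0.0273, edgeR). The former passed in 1 of the 9 fits, without Pre replicate 3 (-2.16 to -1.64), and the latter in 4, being lost on leaving out Pre replicates 1 or 2 or any WL2 library (-2.42 to -1.88). Eya1, a transcriptional coactivator of development, fell at WL2 versus Pre by 2.37 on the log2 scale (adjusted p = 0.00606, edgeR), from 0.473 to 0.0914 FPKM, in all 9 leave-one-out fits. The remaining calls are named after their values were seen. Cpeb4 rose at WL1 by 0.55 (adjusted p = 0.0183, edgeR), lost on leaving out Pre replicate 1 or any WL1 library (0.48 to 0.60). Meis1 rose at WL2 versus Pre by 0.65 (adjusted p = 0.0380, edgeR), lost on leaving out Pre replicates 1 or 3, WL1 replicate 2 or any WL2 library (0.58 to 0.72). Pparg, the master regulator of adipocytes, had 48.9 FPKM in WL1 and rose by 0.54 on the log2 scale to 72.0 FPKM in WL2 (adjusted p = 0.0456, edgeR). It passed in 3 of the 9 leave-one-out fits, being lost on leaving out Pre replicate 3, WL2 replicates 2 or 3 or any WL1 library (0.45 to 0.60).

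**Figure D4:**
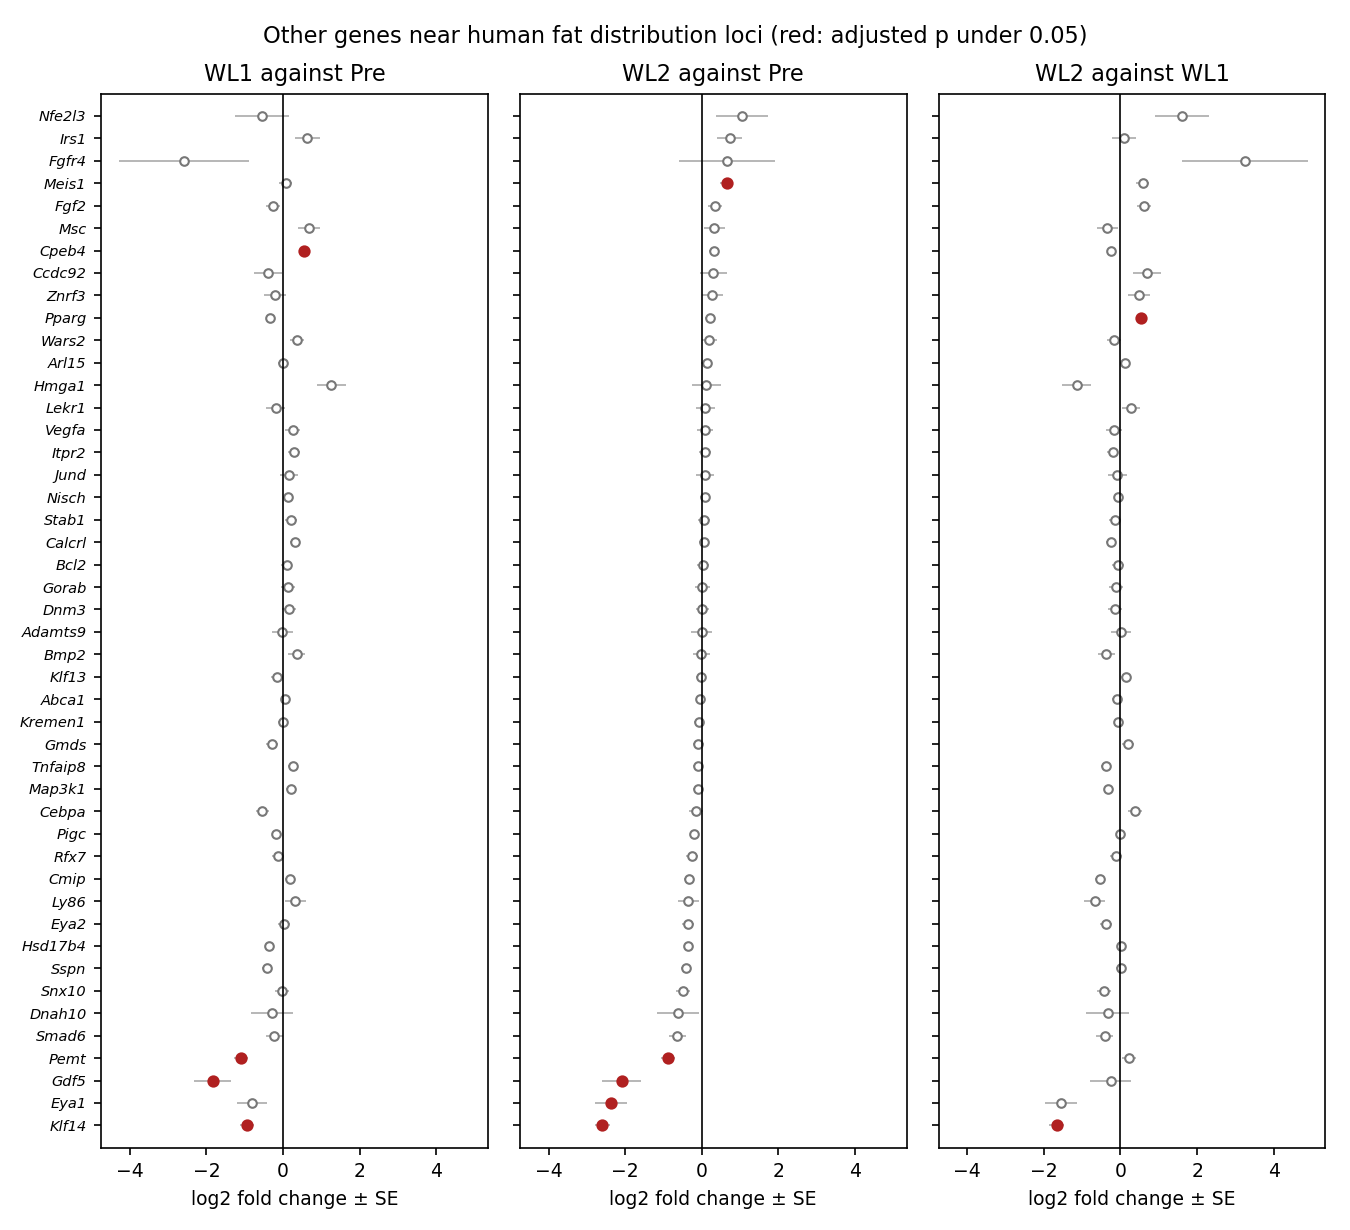
Log2 fold change with SE (horizontal axis) of 46 other genes named for human fat distribution loci, ordered by their value at WL2 versus Pre, in the 3 comparisons. Red points passed the threshold, and Klf14, at the bottom, is the gene that did so in all 3, with -0.93, -2.59 and -1.66.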

How the data were processed

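RNA of epididymal adipose tissue was sequenced in 9 libraries, 3 each of Pre, WL1 and WL2, grouped and numbered by the sample labels. The authors deposited raw counts and FPKM for each gene as separate tables, the counts being whole numbers. The submitters' processing notes name GRCm38 and mm10 together with CASAVA, HISAT, HISAT2 and TopHat2, without roles or versions. The counting program, strand setting and annotation were not given in the sources used here, and the coordinates in the table differ from those of GENCODE M21 on GRCm38, so that they are printed without a build. Every column of values matched a sample.

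Of 56748 genes, the 18510 that reached 0.5 CPM in 1 or more libraries entered a single edgeR model (version 4.0.16, R 4.3.3, quasi-likelihood F-tests by glmQLFTest after TMM scaling, no covariates). Adjustment was by Benjamini-Hochberg over those genes, and the threshold was 0.05. A prior count of 2 went into log2 CPM. The members, lists and tests were chosen with earlier results of these data known. The lists were written from general knowledge. No p-value is given for a member at WL2 against Pre, nor for Fam13a. Named were the members, up to 4 past the threshold per list by absolute log2 fold change, the 2 nearest tested genes on each side of a member, and the most alike genes. The alternatives were DESeq2 1.42.0, limma 3.58.1 on log2(FPKM + 1) and log2(FPKM + 0.1), other filters, other scaling factors, a block on the replicate number, the compared phases alone and each library left out. DESeq2 called 2344, 2717 and 1935 of all genes at WL1 versus Pre, WL2 versus Pre and WL2 versus WL1. In the same order, limma on log2(FPKM + 1) called 1371, 1914 and 582. Counts at p below 0.05 before adjustment have no share of all genes beside them, and nothing is read from them. The code was tested on simulated data. Pairs of libraries of a phase gave a chi-square per degree of freedom from 9.88 to 53.8. Promoter windows were taken from RefSeq on GRCm38.p6, in which 5 of the 7 members had a window. Rspo3 and Tbx15 had none.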

Additional observations from a re-analysis of the deposited data

How the results depend on the processing

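The counts of genes past the threshold and the log2 fold changes of the members and named genes were recomputed under 10 other settings and with each library left out, and among these fold changes none past the threshold changed sign. Member levels were recomputed with library totals only, and correlations and marker sums were not recomputed. The members past the threshold at WL1 versus Pre numbered 3, and 1 in limma on log2(FPKM + 0.1), and 0 to 3 with a library left out. At WL2 versus WL1 they numbered 2, and 1 in that limma fit and 1 to 2 with a library left out. The genes past the threshold at WL1 versus Pre (1350) numbered 2344 by DESeq2, 781 in limma on log2(FPKM + 0.1) and 512 to 1500 with a library left out. At WL2 versus Pre (1853) they numbered 743 to 1688 with a library left out. At WL2 versus WL1 (681) they numbered 1668 without a filter, 1935 by DESeq2, 231 in limma on log2(FPKM + 0.1), 1053 with the phases alone and 37 to 1351 with a library left out. The genes at other fat distribution loci numbered 8 by DESeq2 at WL1 versus Pre (main 4, 1 to 5 with a library left out) and 8 at WL2 versus Pre (main 5, 2 to 6). At WL2 versus WL1 (main 2) they numbered 6 without a filter, 7 by DESeq2, 1 in limma on log2(FPKM + 0.1) and 1 to 5 with a library left out. The cause of these differences was not tested. With library totals as the only scaling, the median log2 fold change of all genes moved to 0.1197, 0.1578 and 0.04865 in the 3 comparisons.

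The replicate numbers gave no sign that libraries were paired. The correlation of deviations ranged from -0.233 to 0.0913 between same-numbered libraries and from -0.186 to 0.23 between differently numbered ones. With 3 libraries per phase, this check cannot show that pairing was absent. With the replicate number as a block, the members past the threshold at WL1 versus Pre numbered 1, Lyplal1, while Grb14 (log2 fold change -1.07) and Plxnd1 (-0.53) did not pass, all genes past it numbered 844 at WL1 versus Pre and 330 at WL2 versus WL1, and the genes at other loci 1 at WL2 versus WL1. Rspo3 had few reads, 6 to 23 per library, and Tbx15 fewer, at most 5. How far depth or the spread between libraries limits the estimates of Rspo3 was not tested.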
